A study of Mus musculus with 3 samples.

Results

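Semaphorins, ephrins, Slits and netrins are guidance cues that were first studied in growing axons, and with their receptors they also steer migration, adhesion and vessel patterning in mesenchymal and vascular tissue. Semaphorins signal through plexins, and most secreted class 3 semaphorins need a neuropilin beside the plexin. Ephrins bind Eph receptor tyrosine kinases on neighbouring cells, with A ephrins held by a lipid anchor and B ephrins spanning the membrane, while Slits act through Robo receptors and netrins through DCC, neogenin and UNC5 receptors. The genes of these families were taken by symbol from the protein-coding genes of the table, which gave 62 of 22032 protein-coding genes and of 43346 genes in all. They comprise 20 semaphorins, 9 plexins, 8 ephrins, 14 Eph receptors, 3 Slits, 4 Robos and 4 netrins.

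RNA was sequenced from cultured mesenchymal stem cells (MSCs), the plastic-adherent stromal cells of fat pads, the donors being adult C57BL/6 mice, in a study of MSC transplantation against narrowing of the vein in dialysis fistulas. There was a single group of 3 libraries with no treatment, so all comparisons were between genes within the same cells or between libraries. The labels do not give the depot, the passage, the number of mice, or whether the libraries came from separate cultures, so the spread between libraries may be technical. Levels are in RPKM (reads per kilobase of gene model, scaled to the depth of the library), which allows genes of different length to be set side by side, and errors are SDs over the 3 libraries (n = 3). A gene counted as detected where each of the 3 libraries had an RPKM of at least 1. With 3 libraries of 1 group the smallest two-sided p of an exact sign-flip test is 0.25, so no test was made.

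For 70.2% of 27301 genes the values came out as whole reads on inferred library totals of 28791578, 32962010 and 32001147 reads for libraries 1, 2 and 3. The inferred reads summed over genes to 30999026, 35410045 and 34462150, above these totals, and the reason was not tested. The 10 MSC surface markers were all detected, where the share over all protein-coding genes was 47.4%. They summed to 568 to 586 RPKM, with Itgb1 the highest at a mean of 329 RPKM and Nt5e the lowest at 1.15 RPKM, just above the threshold. Of the markers of other cells, 1 of 10 endothelial genes was detected, with a summed level of 2.62 to 2.76 RPKM and Cldn5 listed at 0. The macrophage list had 6 of 10 detected and summed to 41.5 to 43.4 RPKM, the mesothelial list had 8 of 8 and summed to 213 to 232 RPKM, and the glial and neural list had 1 of 8, the tubulin gene Tubb3. No gene of the 10 lymphocyte markers was detected, and their sum was 0.0638 to 0.131 RPKM. In bulk RNA, fewer cells of a type and less RNA per cell cannot be told apart, and the part of these other cells in the levels below was not tested.

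Of the 62 guidance genes 33, or 53.2%, were detected, beside 47.4% of all protein-coding genes. Another 4 reached an RPKM of 1 in some but not all libraries, 25 stayed below 1 in every library, and 2 of those, Epha8 and Ntn5, were listed at 0 throughout. The median of the mean log2(RPKM + 1) over the 62 genes was 1.16 ± 0.05, and that over all protein-coding genes was 0.85. Among detected genes alone the guidance genes had a median level of 5.48 RPKM and all protein-coding genes 6.55 RPKM. The signal was concentrated in a few genes. The sum of all members was 462 RPKM, of which Slit3 alone made up 25.9%, the 5 highest genes (Slit3, Plxnb2, Efnb1, Plxna1 and Efnb2) 61.8%, and the 9 genes with a mean of 10 RPKM or more 74.9%.

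**Figure D1:**
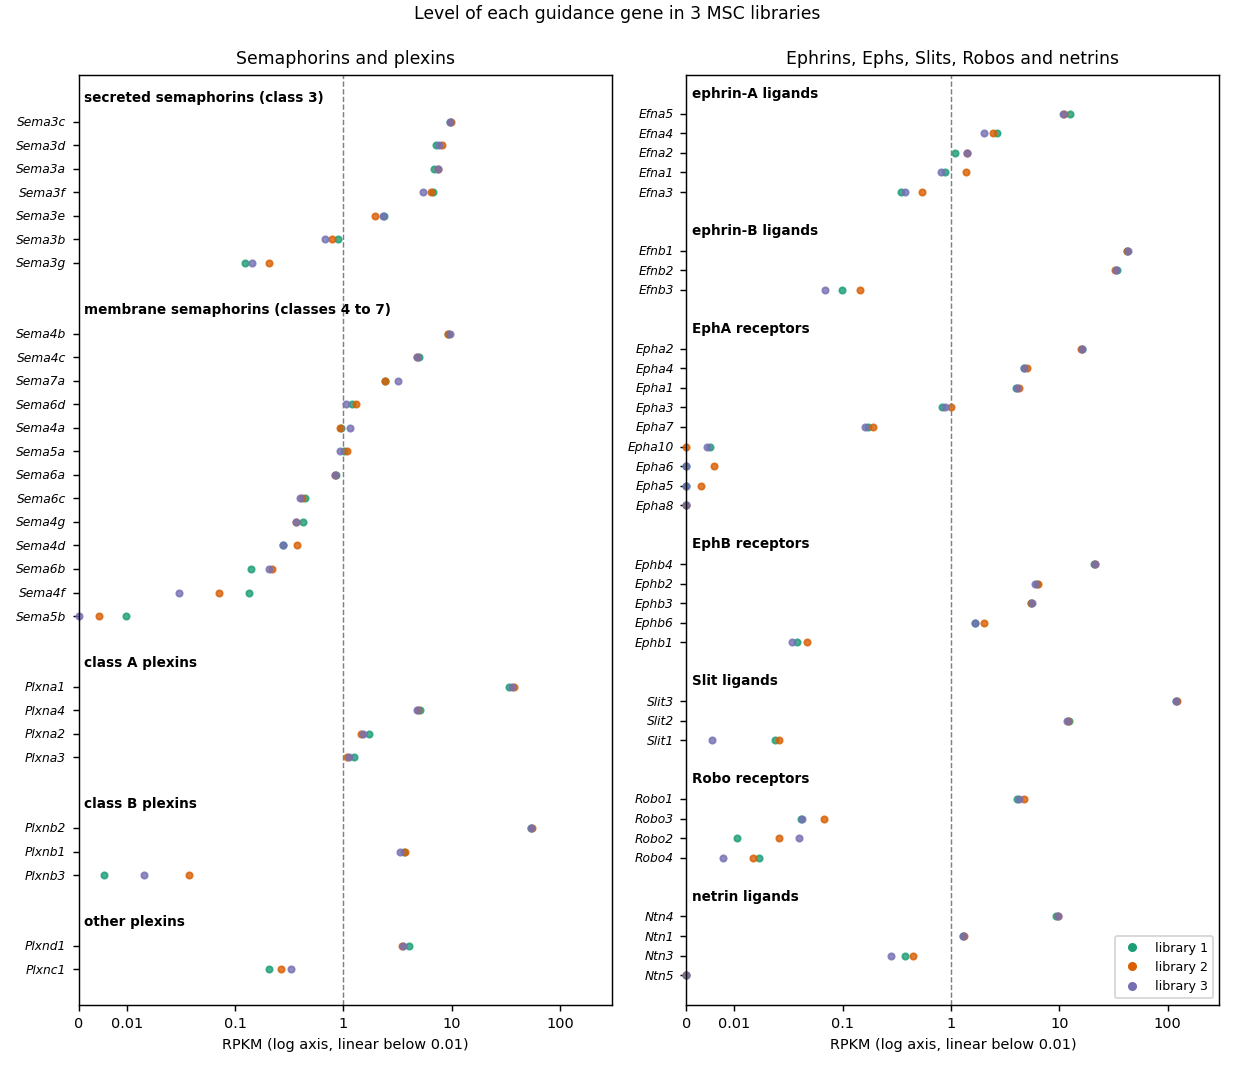
RPKM of each of the 62 guidance genes (rows, grouped by class and ordered by mean) in the 3 MSC libraries (coloured points), on a log axis that is linear below 0.01, with the detection threshold of 1 dashed. Several classes hold 1 or a few genes far to the right of the rest, led by Slit3 near 120 RPKM, but the secreted semaphorins do not. The lowest mean of a class ranges from 0 to 1.15 RPKM, the latter in class A plexins. The 3 libraries of a detected gene lie close together.

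The highest levels were separate in every library, with Slit3 above Plxnb2, Plxnb2 above Efnb1 and Efnb1 above Plxna1. Further down, the order was less certain. Among the 32 pairs of neighbours in the order of the 33 detected genes, the ranges over the 3 libraries did not overlap in 13. Plxna1 and Efnb2, for instance, changed places between libraries, as did Slit2 and Efna5, and Ntn4 at 9.59 RPKM overlapped both Sema3c at 9.74 RPKM and Sema4b at 9.41 RPKM, whereas Sema3c was above Sema4b in every library.

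Promoter sequence was examined as a feature that the choice of genes did not use. RefSeq starts on GRCm38.p6 were listed for 54 members, and 50 of them lay within 1000 bases of the start of the GENCODE M21 gene. The 250 bases upstream of these starts held a median of 16.5 CpG dinucleotides in the 26 detected members and 15.5 in the 24 others. Over all protein-coding genes with such a start the medians were 17 in 7196 detected genes and 4 in 6445 others. The medians of detected and other members lay close together and those of detected and other protein-coding genes lay apart, but no test of this was made. The GC box GGGCGG, searched on both strands, was found in 22 of the 26 detected members and 16 of the 24 others, beside 64.0% of the detected and 29.8% of the other protein-coding genes. The motif TATAAA, on both strands, was found in 2 of the 26 and 0 of the 24, beside 5.61% and 15.4%. DNA methylation and factor binding were not measured, and a match is only a description of the letters.

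Of the 24 windows that reached into no annotated gene, 3 are printed with CpG dinucleotides in capitals and read 5′ to 3′ on the strand of the gene. Plxnb2 has the highest level among them and 20 CpGs, Sema3d the fewest CpGs of the detected genes with 4, and Epha8, listed at 0, has 46. The windows are chr15:89180789-89181038 on the minus strand, chr5:12382916-12383165 on the plus strand and chr4:136956817-136957066 on the minus strand of GRCm38.p6, in the order printed.
Plxnb2: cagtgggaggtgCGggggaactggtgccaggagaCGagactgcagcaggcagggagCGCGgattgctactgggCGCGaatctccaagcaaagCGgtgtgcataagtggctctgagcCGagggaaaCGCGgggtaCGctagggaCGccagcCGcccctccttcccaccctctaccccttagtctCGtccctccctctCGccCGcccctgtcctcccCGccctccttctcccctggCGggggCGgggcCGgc
Sema3d: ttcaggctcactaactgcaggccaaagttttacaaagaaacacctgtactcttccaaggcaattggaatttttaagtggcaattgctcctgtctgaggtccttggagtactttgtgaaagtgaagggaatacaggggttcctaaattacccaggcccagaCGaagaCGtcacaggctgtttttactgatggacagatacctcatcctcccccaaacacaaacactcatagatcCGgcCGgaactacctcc
Epha8: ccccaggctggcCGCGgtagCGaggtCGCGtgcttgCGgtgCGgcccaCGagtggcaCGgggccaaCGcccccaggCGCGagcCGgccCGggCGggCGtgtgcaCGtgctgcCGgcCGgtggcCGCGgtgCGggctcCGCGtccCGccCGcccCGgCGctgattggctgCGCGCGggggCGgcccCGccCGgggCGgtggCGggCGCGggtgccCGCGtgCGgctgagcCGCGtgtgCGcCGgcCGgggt
The plexin gene and the Eph receptor gene both have CpG-dense upstream sequence although they lie at opposite ends of the order of levels, and Sema3d was detected with few CpGs.

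**Figure D2:**
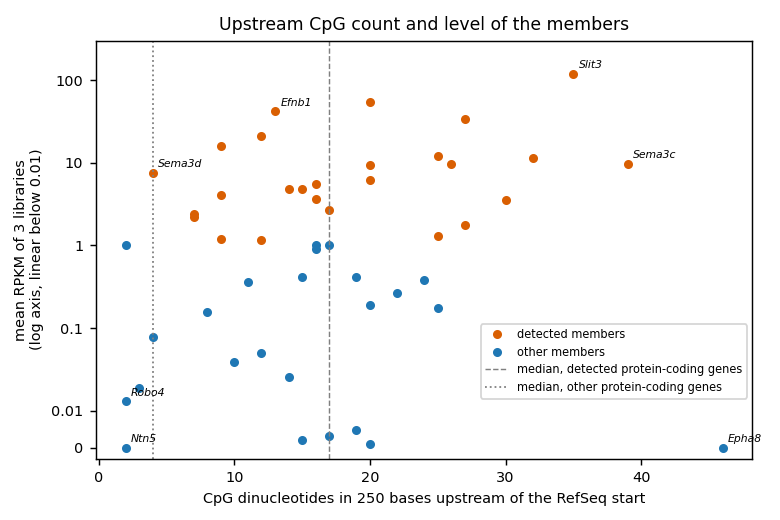
Mean RPKM (log axis, linear below 0.01) against the number of CpG dinucleotides in the 250 bases upstream of the RefSeq start for 50 guidance genes, detected (orange) or not (blue), with the medians of detected (17, dashed) and other (4, dotted) protein-coding genes. Points below the threshold spread over the same CpG counts as those above it, with Epha8 at 46 CpGs and a level of 0.

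Slit ligands were the most abundant class of the 12 by summed level, and their receptors were among the lowest. Slit3 (ENSMUSG00000056427, chromosome 11, 35121224 to 35708507 on mm10, from GENCODE M21 as for all genes), which encodes a secreted repellent of migrating cells, had 119, 121 and 119.8 RPKM in libraries 1, 2 and 3. Its coefficient of variation was 0.683%, the lowest of the detected members and close to counting error alone. Slit2 (chromosome 5, 47983138 to 48307733) had 12.2, 12.1 and 11.7 RPKM. Slit1, best known from the nervous system, had at most 0.0256 RPKM. Slit3 thus made up 90.9% of the summed Slit level and lay above 97.8% of the detected protein-coding genes.

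Robo1, the receptor through which Slits act in many tissues, had 4.04, 4.67 and 4.19 RPKM and made up 98.0% of the summed Robo level. In library 2 its 95% Poisson interval of 4.48 to 4.86 RPKM did not meet that of library 1, 3.85 to 4.23 RPKM, so the libraries differed by more than counting error. Robo2 had 0.0105, 0.0257 and 0.0397 RPKM, Robo3 averaged 0.050 RPKM, and Robo4, a Robo of endothelial cells, had 0.0169, 0.0148 and 0.00761 RPKM, from at least 1 or 2 reads a library. The Robo receptors together summed to 4.39 ± 0.348 RPKM and the Slit ligands to 131.9 ± 0.834 RPKM, a difference in log2 summed RPKM of -4.91 ± 0.10 that was negative in 3 of 3 libraries. Without Slit3 it was -1.45. On the partner list, 8 of 10 genes were detected, beside 47.4% of all protein-coding genes. Among them was the Slit-binding dystroglycan gene Dag1 at 42.8 ± 1.42 RPKM. The heparan sulfate proteoglycan genes Sdc1 and Gpc1 had 21.6 ± 1.07 and 8.57 ± 0.592 RPKM, and the Robo-trafficking gene Usp33 had 11.2 ± 0.453 RPKM. The Robo-linked GTPase-activating genes Srgap2, Srgap3 and Srgap1 followed at 6.36, 4.10 and 2.53 RPKM, and Flrt3 was the lowest of the list at 0.693 RPKM.

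**Figure D3:**
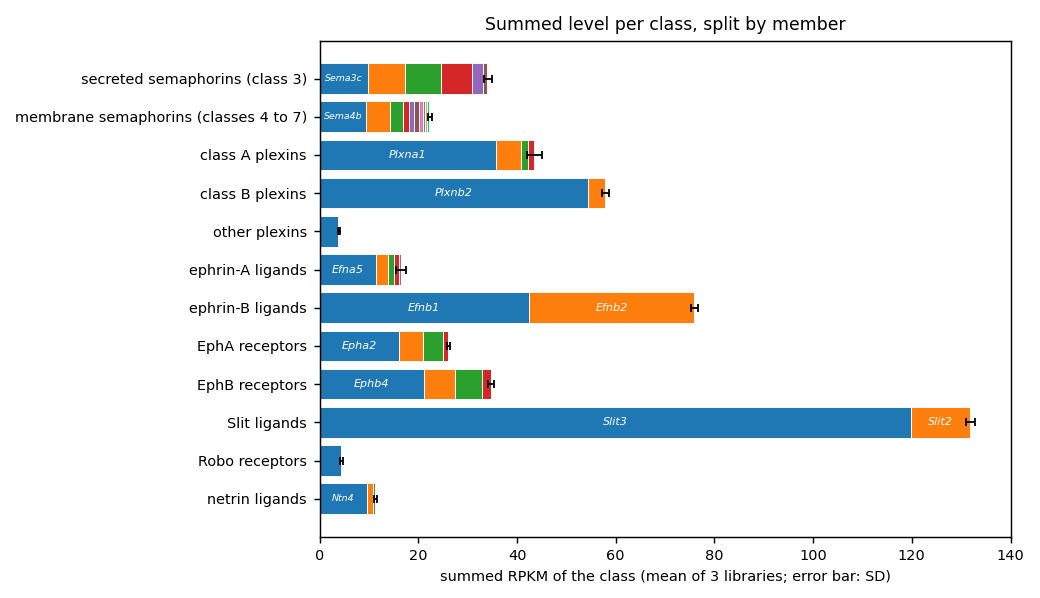
Summed RPKM of each of the 12 classes (bar length, mean of 3 libraries, error bar SD), split by member from the highest at the left. The Slit bar reaches 131.9 RPKM and is nearly all Slit3, class B plexins are nearly all Plxnb2, and ephrin-B ligands are shared by Efnb1 and Efnb2.

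The ephrin-B ligands were the next most abundant class. Efnb1 (ENSMUSG00000031217, X chromosome, 99136130 to 99148991), whose product is a transmembrane ligand with a role in boundary formation, had 41.8, 42.2 and 43.2 RPKM. Efnb2 (chromosome 8, 8617434 to 8661242), the ligand of EphB4 that marks arteries in the embryo, had 34.3, 32.9 and 33.2 RPKM. Its lowest value was above the level of every Eph receptor. The third B ephrin, Efnb3, averaged 0.103 RPKM. Among A ephrins, Efna5 had 12.4, 11.0 and 10.8 RPKM and made up 69.0% of the class. Efna4 had 2.67, 2.45 and 2.01 RPKM, and Efna2 1.08, 1.41 and 1.41 RPKM. Efna1, a high-affinity ligand of EphA2, passed the threshold in 1 library, with 0.873, 1.38 and 0.802 RPKM, or 46, 83 and 47 reads. Efna1, Efna3 and Efna4 are consecutive protein-coding genes on chromosome 3, with gaps of 32756 and 10424 bases, and had means of 1.02, 0.417 and 2.38 RPKM.

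Ephrin-B ligands summed to 76.0 ± 0.711 RPKM and ephrin-A ligands to 16.5 ± 1.04 RPKM. The difference in log2 summed RPKM was 2.20 ± 0.10, positive in 3 of 3 libraries. Exons of Efna3 and Efna4 share 14.1% and 10.5% of their bases with antisense genes, and without strand the reads of both cannot be told apart. The antisense genes had means of 0.256 and 0.366 RPKM.

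Eph receptors were led by Ephb4 (ENSMUSG00000029710, chromosome 5, 137350109 to 137378669), the partner of ephrin-B2 on venous endothelium, with 20.98, 21.5 and 21.1 RPKM. The 10 endothelial markers together summed to at most 2.76 RPKM. The only one detected was Kdr, with a mean of 1.28 RPKM, while the undetected ones included Pecam1 at 0.0174, Cdh5 at 0.657 and Tek at 0.317 RPKM. Whether endothelial cells contributed to the Ephb4 level was not tested. Ephb2 had 6.26, 6.40 and 6.01 RPKM, and Ephb3, which had one of the smaller spreads with a coefficient of variation of 1.11%, had 5.41, 5.51 and 5.52 RPKM. Ephb6, whose kinase domain lacks activity, had 1.67, 2.02 and 1.66 RPKM. Ephb1 averaged 0.0393 RPKM. In the A subfamily, Epha2 (chromosome 4, 141301240 to 141329384), a receptor of many epithelial and stromal cells, had 16.3, 15.9 and 16.2 RPKM. Epha4, which binds ephrins of both kinds, had 4.70, 5.04 and 4.67 RPKM. Epha3 reached the threshold in library 2 alone, with 0.822, 1.01 and 0.872 RPKM.

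Epha1 had 3.95, 4.23 and 4.02 RPKM, from at least 372, 456 and 421 reads. Its exons share 236 bases, 6.01% of the total, with Zyx on the opposite strand, a focal adhesion gene at 251, 259.6 and 251 RPKM. With even coverage at that level the shared bases would hold 1707, 2020 and 1897 reads of Zyx, more than these lower limits for the reads of Epha1. The kit named in the labels does not mark strand, and how shared reads were counted is not given in the sources used here, so the Epha1 level is uncertain. Exon bases were shared with another gene by 14 of the 61 members found in the annotation. Stretches of 50 bases that also occur in transcripts of other genes made up 18.5% of Ntn5, 8.14% of Efna3, 7.68% of Efna4, 7.06% of Plxna1, 5.93% of Sema4c and 5.54% of Epha1, and at most 2.19% of any other of these 61 members. Of the other EphA receptors, Epha7 averaged 0.175 RPKM, Epha10, Epha6 and Epha5 had at most 0.00573 RPKM in any library, and Epha8 had no reads. For Epha8, 3 reads would be 0.0221, 0.0193 and 0.0199 RPKM in libraries 1, 2 and 3. The 95% Poisson intervals of its count of 0 reached up to 0.0272, 0.0237 and 0.0245 RPKM.

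The EphB receptors summed to 34.7 ± 0.639 RPKM and the EphA receptors to 26.1 ± 0.260 RPKM, a difference in log2 summed RPKM of 0.41 ± 0.01. Without Epha1 the difference was 0.65. Eph receptors as a whole summed to 60.8 ± 0.898 RPKM and ephrins to 92.5 ± 0.975 RPKM, a difference of -0.60 ± 0.03. Both differences had the same sign in 3 of 3 libraries. Of 15 genes that act downstream of Ephs and ephrins 11 were detected, beside 47.4% of all protein-coding genes. The highest were the adaptor gene Grb10 at 61.1 ± 0.999 RPKM and the ephrin-cleaving protease gene Adam10 at 30.5 ± 0.547 RPKM. The phosphatase gene Ptpn13 at 15.4 ± 0.503 RPKM and the exchange factor gene Vav2 at 14.4 ± 0.542 RPKM came next. Grip1, a scaffold that binds the tail of B ephrins, was the lowest at 0.0181 RPKM.

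**Figure D4:**
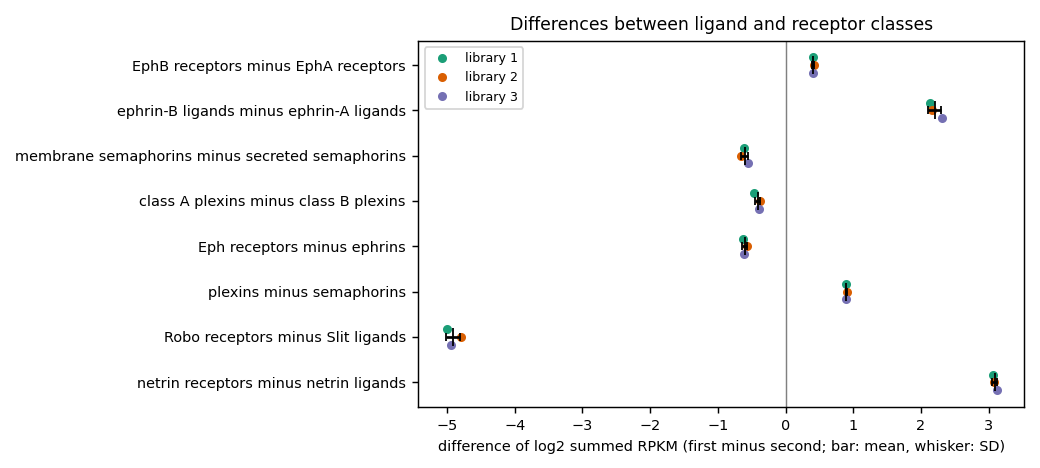
Difference of log2 summed RPKM between pairs of classes, first named minus second, per library (coloured points) with mean (bar) and SD (whisker). Each pair falls on the same side of 0 in all 3 libraries, from -4.91 for Robo receptors minus Slit ligands to 3.09 for netrin receptors minus netrin ligands.

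Among plexins, Plxnb2 and Plxna1 each made up most of the level of their class. Plxnb2 (ENSMUSG00000036606, chromosome 15, 89155549 to 89180788), a receptor for class 4 semaphorins, had 54.1, 54.9 and 53.9 RPKM and made up 93.8% of the class B sum. Plxna1 (chromosome 6, 89316314 to 89362620), which pairs with neuropilins, had 33.9, 37.5 and 36.0 RPKM. Its coefficient of variation of 5.10% was 5.12 times that of counting alone, the highest such ratio of the detected members, and library 1 was the lowest. Antisense gene Gm26811 shares 10.7% of the exon bases of Plxna1 and had 0.365 RPKM. The remaining class A plexins were lower. Plxna4 had 5.11, 4.90 and 4.82 RPKM, Plxna2 1.71, 1.46 and 1.52 RPKM, and Plxna3 1.26, 1.08 and 1.12 RPKM.

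Plxnb1, the receptor of the class 4 ligand Sema4D, had 3.67, 3.69 and 3.33 RPKM, and Plxnb3 averaged 0.0191 RPKM. Plxnd1, the receptor of Sema3E, had 4.01, 3.46 and 3.54 RPKM. The sole class C plexin, Plxnc1, a receptor of Sema7A, had 0.204, 0.263 and 0.331 RPKM and was below the threshold in all libraries. Class A plexins summed to 43.5 ± 1.49 RPKM and class B plexins to 57.9 ± 0.703 RPKM, a difference in log2 summed RPKM of -0.41 ± 0.04 that was negative in 3 of 3 libraries. It rested on Plxnb2. Without the highest gene of each class it became 1.10.

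Secreted semaphorins were led by 4 genes of similar level. Sema3c (chromosome 5, 17574281 to 17730268), a guide of cardiac outflow and vessel development, had 9.61, 9.88 and 9.72 RPKM. Sema3d had 7.18, 8.07 and 7.61 RPKM, and Sema3a, the founding repellent of the class, had 6.92, 7.53 and 7.49 RPKM. Sema3d and Sema3a are consecutive protein-coding genes on chromosome 5 with a gap of 536465 bases. Sema3f, a ligand with preference for neuropilin 2, had 6.73, 6.50 and 5.39 RPKM, with library 3 apart from the others beyond counting error. Sema3e had 2.37, 1.97 and 2.31 RPKM. Sema3b and Sema3g averaged 0.787 and 0.158 RPKM. The 5 genes from Sema3c to Sema3e were detected, and none made up more than 28.6% of the class.

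The membrane semaphorins had 4 of 13 genes detected, beside 47.4% of all protein-coding genes. Sema4b had 9.33, 9.33 and 9.57 RPKM, and Sema4c, a ligand of plexin B2, had 4.96, 4.79 and 4.81 RPKM. Sema7a, the lipid-anchored semaphorin that also signals through beta1 integrin, had 2.40, 2.44 and 3.18 RPKM. The value in library 3 exceeded those of the other libraries beyond counting error, with a 95% Poisson interval of 2.84 to 3.53 RPKM in library 3 against 2.10 to 2.73 RPKM in library 1. Sema6d had 1.21, 1.31 and 1.05 RPKM. Sema4a had 0.951, 0.937 and 1.15 RPKM, and Sema5a 1.02, 1.07 and 0.939 RPKM, each crossing the threshold in some libraries. Sema6a averaged 0.843 RPKM, Sema6c 0.416, Sema4g 0.387 and Sema4d, a semaphorin abundant on leukocytes, 0.307 RPKM. Sema6b, Sema4f and Sema5b averaged 0.188, 0.0788 and 0.00470 RPKM.

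Membrane semaphorins summed to 22.4 ± 0.367 RPKM and secreted semaphorins to 34.0 ± 0.824 RPKM, a difference in log2 summed RPKM of -0.61 ± 0.05. Plexins summed to 105 ± 1.79 RPKM and semaphorins to 56.4 ± 0.617 RPKM, a difference of 0.90 ± 0.01. Both kept their sign in 3 of 3 libraries, but the difference of plexins minus semaphorins was 0.13 without Plxnb2 and Sema3c, the highest gene of each side. Both neuropilins were detected. Nrp1 had 16.1, 16.4 and 15.6 RPKM and Nrp2 4.89, 4.71 and 4.75 RPKM. Of the 14 neuropilins and co-receptors on the list 7 were detected, close to the 47.4% of all protein-coding genes. The others above 9 RPKM were Itgb1 at 329 ± 13.05, Itga1 at 13.9 ± 0.644 and the plexin B partner Met at 9.81 ± 0.275 RPKM. The immune gene Timd2 was the lowest at 0.00933 RPKM. All 17 listed effectors of plexins were detected, beside the same 47.4%, but the list was chosen with earlier results of these data known. The highest were the small GTPase genes Rras2 at 61.0 ± 3.67 and Rras at 42.3 ± 2.46 RPKM. With them were the actin-oxidizing enzyme gene Mical2 at 45.8 ± 1.73 RPKM and the collapsin response mediator gene Dpysl2 at 24.1 ± 0.818 RPKM. Dpysl5 was the lowest at 1.49 RPKM.

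Netrins were led by the laminin-binding member. Ntn4 (chromosome 10, 93640681 to 93747207), a component of basement membranes, had 9.25, 9.71 and 9.80 RPKM and made up 85.2% of the class. Ntn1, the axonal attractant, had 1.28, 1.33 and 1.28 RPKM. Ntn3 averaged 0.366 RPKM, and Ntn5 had no reads, where 3 reads would be 0.0470, 0.0411 and 0.0423 RPKM in libraries 1, 2 and 3. Netrin receptor genes were more abundant by summed level, though not each of them. Unc5b, a repulsive netrin receptor, had 51.4, 52.9 and 54.9 RPKM, neogenin (Neo1) 18.9, 19.2 and 19.0 RPKM, Mcam, reported as a netrin receptor in endothelium, 14.2, 18.4 and 17.5 RPKM, and the adenosine receptor gene Adora2b 5.27, 5.36 and 6.03 RPKM. Dcc, the attractive receptor of axons, had at most 0.0129 RPKM. Unc5a, Unc5c and Unc5d averaged 0.989, 0.233 and 0.00233 RPKM. These netrin receptor genes and Dscam, 9 in all, summed to 95.7 ± 4.06 RPKM and the netrin ligands to 11.3 ± 0.300 RPKM, a difference in log2 summed RPKM of 3.09 ± 0.03, positive in 3 of 3 libraries. With DCC, neogenin and the UNC5 receptors alone it was 2.70. Class medians of log2(RPKM + 1) in place of sums gave a difference of 0.17 for the 9 receptor genes, so it rested on the highest of them. The whole list of netrin and repulsive guidance genes had 7 of 14 detected, close to the 47.4% of all protein-coding genes. Among them were the repulsive guidance ligands Rgmb and Rgma at 8.06 and 1.85 RPKM and Ntng2 at 2.15 RPKM, and Ntng1 was listed at 0.

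The spread between libraries in the guidance genes was close to that in all detected protein-coding genes. None of the 33 detected members had a library 1.5-fold above or below both others (a margin of 50%), beside 0.584% of the 10447 detected protein-coding genes. At so low a share, none among 33 is not read as a trait of the guidance genes. With a margin of 25% in place of 50% there were 2, Sema7a with library 3 high and Efna2 with library 1 low, beside 4.67%. Efna1 was below the detection threshold and so not among the 33. Its library 2 was more than 1.5-fold above both others, with 0.873, 1.38 and 0.802 RPKM. The median coefficient of variation was 4.31% in the detected members and 4.95% in detected protein-coding genes. Relative to counting error alone the median spread was 1.53 times in the members and 1.51 times in detected protein-coding genes. The counting intervals of the 3 libraries shared a common range in 22 of the 33 members and did not in 11. The same share was not taken over all detected protein-coding genes, so this count is not read as a trait of the guidance genes. Library 2 was the highest in 16 of the 33, library 1 in 12 and library 3 in 5, where 33.4%, 35.3% and 31.3% of detected protein-coding genes had their highest value in libraries 2, 1 and 3.

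**Figure D5:**
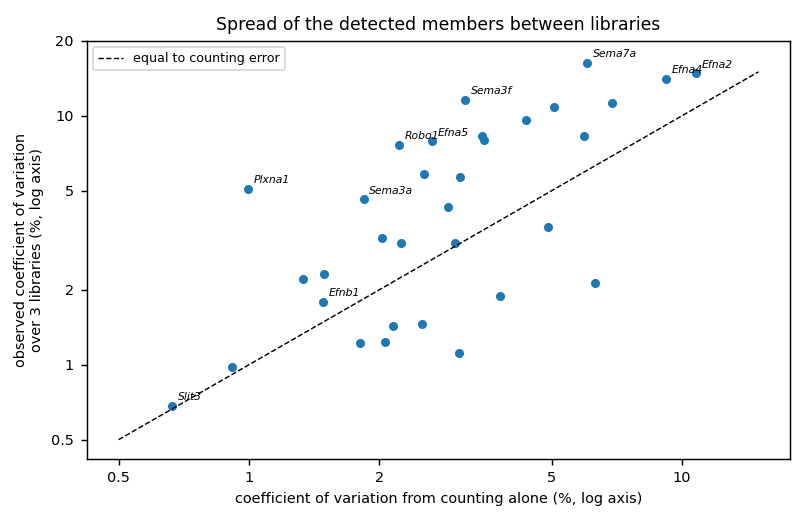
Coefficient of variation over the 3 libraries against that from counting alone for the 33 detected members (both in %, log axes), with equality dashed. Slit3 lies near the line at 0.683%, whereas Plxna1 at 5.10% and Sema7a at 16.3% lie above it.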

How the data were processed

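Levels were taken as the authors deposited them, in RPKM, from 1 table that also gives a symbol, an identifier and a biotype for each gene. Per the labels' protocols, RNA was purified with the miRNeasy kit and libraries were made with the TruSeq V2 kit. Reads were placed on mm10, per the submitters' processing notes. Details of alignment, counting and annotation release were not given in the sources used here.

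The 62 genes were found by symbol patterns among protein-coding genes. The members, partner lists, markers and thresholds were chosen with earlier results of these data known. Members with a mean of 1 RPKM or more are named with every value and the others by mean or range. Of each partner list the 4 highest genes and the lowest are named, with all detected neuropilins and netrin receptors. The Srgap genes, Dcc, the low Unc5 genes, Rgma, Ntng2, the MSC marker Nt5e and the endothelial markers were named after their values were seen. 42462 identifiers matched GENCODE M21, which supplied coordinates and exon lengths. Library totals were inferred from the deposited RPKM, since a gene of 1 read takes a value fixed by its length and the total. With the exon length plus 1 base, 70.2% of 27301 genes gave whole reads in all 3 libraries within 0.001 read. The length so implied lay within 10% of that of M21 in 51 members. For the other 11 the smallest whole numbers that the 3 values allow were used, so their reads are lower limits and their intervals at least as wide. Exact Poisson intervals (95%) and floors of 3 reads cover counting error only.

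The libraries were compared pairwise over 13382 protein-coding genes averaging at least 10 reads. The median chi-square was 2.91 to 3.45 times that of counting noise, so the 3 libraries were kept apart and not merged. Such spread cannot tell separate cultures from repeat preparations of 1 culture, so the SDs may be technical. Class differences are differences of log2 summed RPKM, and levels over lists use log2(RPKM + 1), which understates differences of low genes. Upstream sequences are from RefSeq on GRCm38.p6. Recovery of reads was tested on simulated data. Scripts ran under Python 3.11.15 with scipy 1.17.1, matplotlib 3.10.9, numpy 2.4.6 and pandas 2.3.3.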

Additional observations from a re-analysis of the deposited data

How the results depend on the processing

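Leaving out each library kept the sign of every class difference and gave 33 or 34 detected members. The count was 39 at a threshold of 0.5 RPKM, 26 at 2 RPKM, 48 with 10 reads in every library and 45 after rescaling to TPM over protein-coding genes. Partner genes detected were 50 of 70, with 56 at 0.5 RPKM and 46 at 2 RPKM. Over all protein-coding genes the share detected was 47.4% at 1 RPKM and was not taken at the other settings. The median member level of 1.16 became 0.42 with a pseudocount of 0.1, 2.86 after the TPM rescaling and 1.81 without members under 0.1 RPKM. Members with a library apart were 2 with a margin of 25% in place of 50%, and 1, Efna1, after the TPM rescaling, which brings it past the threshold. With class medians of log2(RPKM + 1) in place of sums, the differences were 2.46 for EphB minus EphA receptors, 3.91 for ephrin-B minus ephrin-A ligands, -1.96 for membrane minus secreted semaphorins, -0.22 for class A minus class B plexins, -0.27 for Eph receptors minus ephrins, 1.17 for plexins minus semaphorins, -3.64 for Robos minus Slits and 0.17 for netrin receptors minus netrins. Without the highest gene of each class they were, in the same order, 0.44, 2.72, -0.91, 1.10 (the sign reversed), -0.34, 0.13, -7.11 and 4.68. Chosen after seeing the data, EphB minus EphA receptors was 0.65 without Epha1, Robos minus Slits -1.45 without Slit3, and netrin receptors minus netrins 2.70 with DCC, neogenin and UNC5 genes alone. Leaving out members under 0.1 RPKM moved no class difference by more than its SD. No paired analysis was possible because there is a single group. Depth limits the genes with few reads, such as Robo4.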
